A study of Mus musculus with 6 samples.

Results

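The 10 genes described here are the endothelial junction and surface genes Pecam1, Cdh5 and Emcn, the vascular receptors Kdr, Flt1, Tek and Tie1, and the angiogenic ligands Vegfa, Angpt1 and Angpt2. They were taken by symbol from the deposited table, where all 10 were found among 25899 gene symbols. RNA came from apical mesenchyme of first molars of the lower jaw, taken from mice on postnatal day 7.5. Mutants (3 libraries) were Gli1-CreER;Bmpr1afl/fl and controls (3 libraries) were Bmpr1afl/fl littermates without the driver in their label, all on a mixed background (C57Bl6/129S6/SvEvTac). Both groups carry floxed Bmpr1a, a type I BMP receptor gene. CreER is a recombinase that acts after tamoxifen, and here it is placed in cells that express Gli1. The tamoxifen schedule, its use in controls and the number of mice per library are not given in the sources used here. Control 3 and mutant 3 are from litter 2, and the other 4 libraries are from litter 1.

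Blood vessels enter the dental papilla from the apex and supply the pulp. Vegfa is the main growth factor for endothelial cells and signals through Kdr (VEGFR2), while Flt1 (VEGFR1) binds the same ligand tightly and can act as a decoy. Angpt1, made mostly by cells around the vessel, activates the receptor Tek (Tie2) and stabilises vessels. Angpt2, made largely by endothelium under remodelling, can oppose Angpt1 at Tek, and Tie1 is an orphan receptor that modulates Tek. Cdh5 (VE-cadherin) and Pecam1 (CD31) hold endothelial cells together, and Emcn is a sialomucin of capillary and venous endothelium.

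Positions are those of GENCODE release M21 on GRCm38, the assembly that mm10 names. Pecam1 lies at chr11:106654217-106750628 and Cdh5 at chr8:104101625-104144511. Kdr (chr5:75932827-75978458) and Flt1 (chr5:147561604-147726011) share a chromosome, as do Tek (chr4:94739289-94874976) and Tie1 (chr4:118471191-118490061). Emcn is at chr3:137341067-137432185 and Vegfa at chr17:46016993-46032369. Angpt1 is at chr15:42424723-42676977 and Angpt2 at chr8:18690263-18741562. Exons of Angpt1 overlap those of an annotated antisense gene, Gm17473, on the opposite strand. Whether counting used the strand is not stated, so reads of these 2 genes may not be separable. No other member had an exon shared with another annotated gene.

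RefSeq promoter windows (GRCm38.p6) were found for 6 of the 10 genes, Kdr, Flt1, Tek, Tie1, Emcn and Vegfa. Sequence just before the start is shown for an endothelial gene and for the ligand, the 2 windows of which at least 200 bases lie outside every annotated transcript. The Emcn window (234 bases, chr3:137340828-137341061, plus strand) and the first Vegfa window (250 bases, chr17:46032378-46032627, minus strand) read 5′ to 3′ as follows, with capitals marking matches to CAGGAAG, a core for ETS factors with its flank, and GGGCGG, the GC box, on either strand.
Emcn: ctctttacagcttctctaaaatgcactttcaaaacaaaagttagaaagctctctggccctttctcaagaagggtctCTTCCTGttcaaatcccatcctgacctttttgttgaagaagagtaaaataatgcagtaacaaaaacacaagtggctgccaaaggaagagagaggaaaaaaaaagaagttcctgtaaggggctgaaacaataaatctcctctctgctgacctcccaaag
Vegfa: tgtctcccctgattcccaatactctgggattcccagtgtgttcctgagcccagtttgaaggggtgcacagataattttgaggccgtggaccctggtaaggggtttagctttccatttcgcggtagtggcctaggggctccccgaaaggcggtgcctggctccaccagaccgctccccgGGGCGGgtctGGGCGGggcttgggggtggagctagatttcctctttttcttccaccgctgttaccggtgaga
Emcn held 1 match to CAGGAAG and none to GGGCGG, and Vegfa held 2 to GGGCGG and none to CAGGAAG. Over the 250 bases before the start, CAGGAAG occurred in 1 of the 6 members and GGGCGG in 3 of 6. Among 32851 mouse windows of the same length the shares were 10.8% and 32.7%. The hypoxia element core ACGTG was in 0 of the 6 members by their first window and in 1 match in the second Vegfa window, and in 16.6% of all windows. The shorter ETS core GGAA, which lies inside CAGGAAG, was in 6 of 6 and in 93.4% of all windows. These are matches of letters, not measured binding.

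Libraries held 15916045 to 20609420 reads on genes, and 3 reads, taken as the limit of detection, correspond to 0.0987 to 0.126 RPM, the reads of a gene scaled to a common number of mapped reads. Bmpr1a stood at 121, 139 and 150 RPM across controls 1 to 3, and at 108, 120 and 111 RPM across mutants 1 to 3. Every mutant lay below every control for it, with an unadjusted p of 0.091 by limma. Markers of dental mesenchyme and odontoblasts were detected in full (8 of 8 genes at 3 or more reads in every library). So were 7 of 7 markers of enamel epithelium, which took 0.313% to 7.06% of the reads on genes. Dspp, the odontoblast matrix gene, was at 4032 to 6872 RPM in litter 1 but at 817 and 113 RPM in control 3 and mutant 3. Dmp1 of the same list was at 5.33 to 18.9 RPM in litter 1 and at 88.7 and 15.2 RPM in control 3 and mutant 3. Of these 8 genes, 2 were lower and 2 higher in litter 2 at an unadjusted p under 0.05 by limma. The shares of all genes were 13.7% and 7.21%. In whole tissue, fewer cells of a type and less RNA per cell cannot be told apart.

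All 10 genes were well above detection, with at least 44 reads in any library. Per kb of exon, which allows genes to be compared as far as the lengths used hold, Cdh5 had the highest mean level. It was at 21.2 RPM per kb over the 6 libraries (range 15.5 to 26.5). Angpt1 followed at 12.3, Tie1 at 10.8 and Pecam1 at 10.7. Vegfa was at 7.20, Kdr at 6.11, Tek at 5.30 and Emcn at 4.69. Flt1 at 2.37 and Angpt2 at 1.78 RPM per kb were the lowest. Cdh5 exceeded Angpt1 in 6 of 6 libraries, although their ranges overlapped. The order of Angpt1 and Tie1 held in only 3 of 6 libraries and that of Tie1 and Pecam1 in 4 of 6. Emcn and Flt1 were the only neighbours in this order whose ranges did not overlap. Their order depends on the length used, the union of all annotated exons, which was 5.41 kb for Emcn and 13.5 kb for Flt1. In RPM, Flt1 was above Emcn, with means of 32.0 and 25.4. Thus Kdr was above Flt1 per length, and Angpt1 above Angpt2, in these libraries; lengths are from GENCODE, and the authors' gene models are not given in the sources used here.

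**Figure D1:**
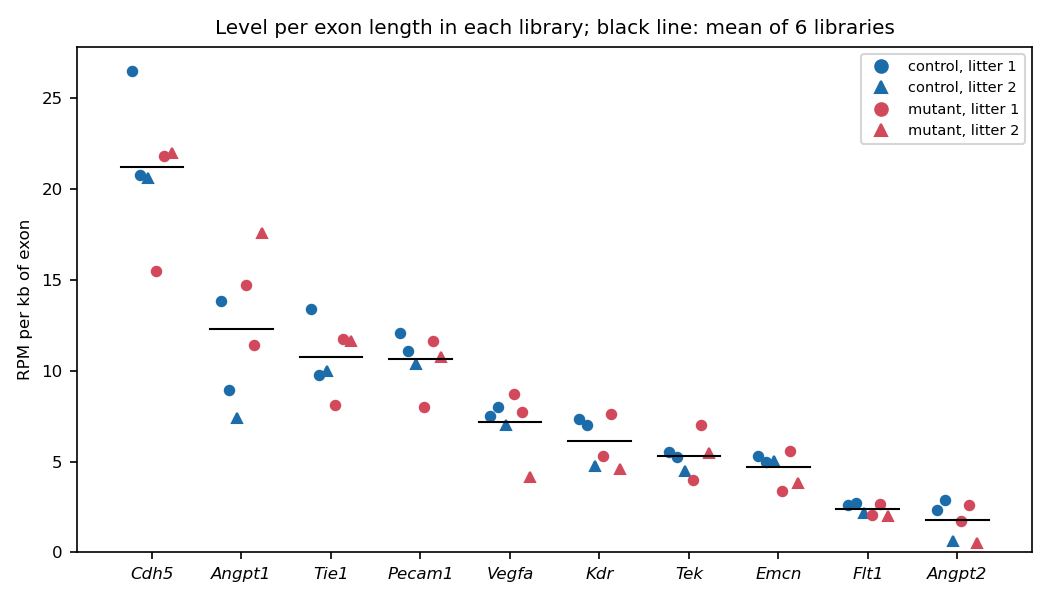
Level of each of the 10 genes in RPM per kb of exon (y axis) in each of the 6 libraries; colour gives genotype, shape gives litter and the black line the mean of 6. Cdh5 is highest at a mean of 21.2 and Angpt2 lowest at 1.78, with both litter 2 libraries at the bottom of the Angpt2 points.

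The genotype comparison asked whether vascular genes differed between the Gli1-CreER;Bmpr1afl/fl mutants and the Bmpr1afl/fl controls. None of the 10 passed adjustment over the 14444 genes tested (adjusted p 1.00 for each; limma, Benjamini-Hochberg), and none had an unadjusted p under 0.05. Over all tested genes the shares called were 0% and 1.05%. No member had groups that did not overlap, against 2.64% of all genes (1.67% lower and 0.976% higher in mutants). Among the members 8 were lower and 2 higher in mutants, with a median log2 difference of -0.15 beside -0.01 for all genes. Differences are mutant minus control in log2(RPM + 1), and values after ± are SD with n = 3. This fit held no term for litter, so the spread between litters is part of its SE and p. With litter as a block the differences were the same and 0 of the 10 had an unadjusted p under 0.05. The unadjusted p by limma was then 0.302 for Angpt2, 0.416 for Kdr and 0.0813 for Angpt1.

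Of the junction and surface genes, Pecam1 stood at 75.1, 69.1 and 64.5 RPM across controls 1 to 3, and at 49.9, 72.5 and 67.1 RPM across mutants 1 to 3. Mutant 1 was the low library, and the other mutants lay among the controls. The difference was -0.15 (SE 0.17, unadjusted p 0.398 by limma). Cdh5 measured 112, 87.3 and 86.7 RPM across controls, and 65.2, 91.8 and 92.4 RPM across mutants. Control 1 was high and mutant 1 low, and the difference was -0.20 (SE 0.19, unadjusted p 0.318 by limma). Emcn measured 28.8, 26.9 and 27.2 RPM across controls, and 18.3, 30.1 and 20.8 RPM across mutants. The controls lay close together (27.6 ± 1.04 RPM), while mutants 1 and 3 were below them and mutant 2 above (23.1 ± 6.25 RPM). Its difference of -0.28 (SE 0.20, unadjusted p 0.196 by limma) was -0.23 within litter 1 and -0.37 within litter 2, and without mutant 2 it was -0.48 (unadjusted p 0.0263 by limma, adjusted p 1.00).

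Among the receptors, Kdr measured 66.3, 63.6 and 43.2 RPM across controls, and 48.1, 68.7 and 41.4 RPM across mutants. The litter 2 library was the lowest of each genotype, and the genotypes interleaved (57.7 ± 12.6 and 52.7 ± 14.2 RPM). Flt1 measured 34.98, 37.1 and 29.2 RPM across controls, and 27.9, 36.1 and 26.9 RPM across mutants. Its groups overlapped too, as mutant 2 lay between controls 1 and 2. Tek measured 26.1, 24.7 and 21.1 RPM across controls, and 18.9, 33.0 and 25.9 RPM across mutants. Both the lowest and the highest Tek library were mutants from litter 1. Tie1 measured 66.0, 48.0 and 49.2 RPM across controls, and 39.8, 57.7 and 57.1 RPM across mutants, again lowest in mutant 1. The receptor differences were -0.14 (SE 0.24) for Kdr, -0.16 (SE 0.17) for Flt1, 0.08 (SE 0.22) for Tek and -0.08 (SE 0.20) for Tie1, with unadjusted p of 0.381 to 0.721 by limma.

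**Figure D2:**
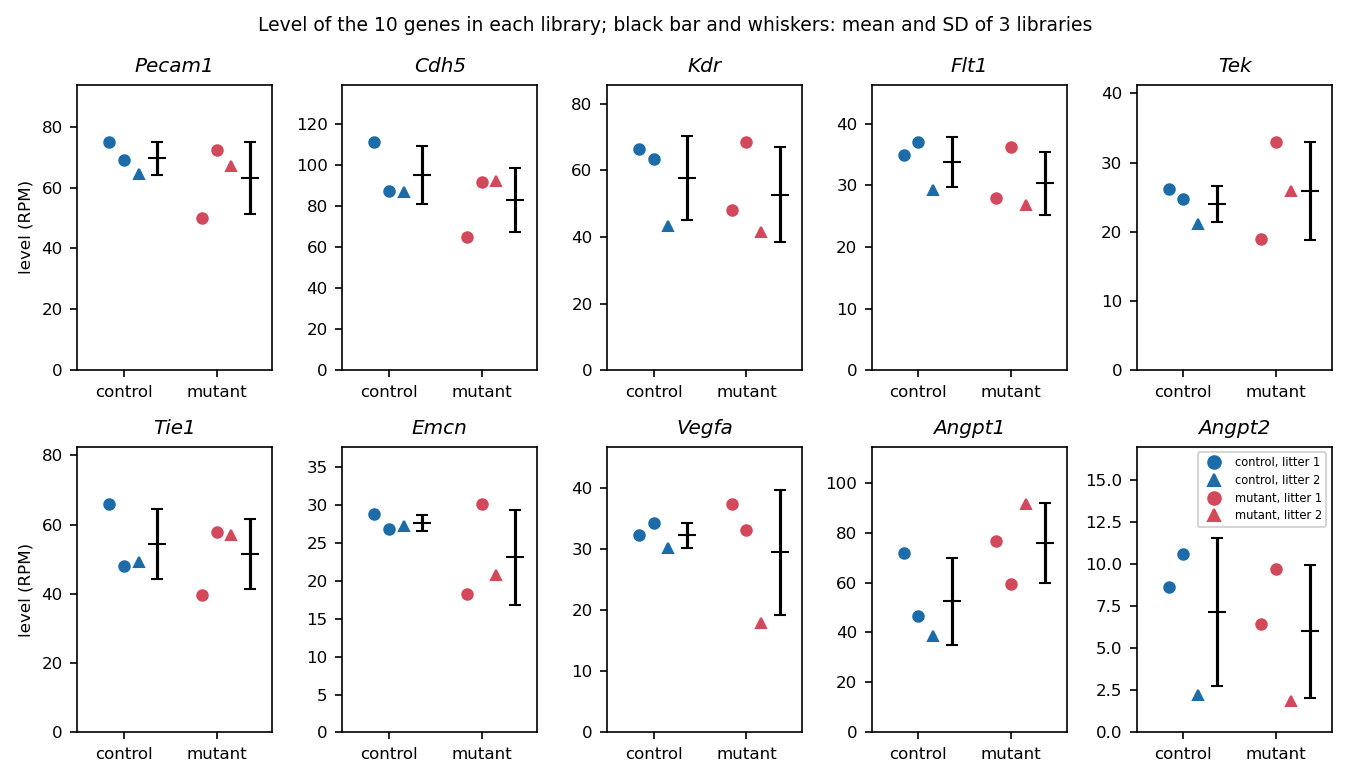
Level in RPM (y axis, from 0) of the 10 genes in the control and mutant libraries; circles are litter 1, triangles litter 2, and the black bar with whiskers is the mean and SD of 3 libraries. Genotypes overlap for all 10, mutant 1 lies lowest for Pecam1, Cdh5, Tek, Tie1 and Emcn, and the litter 2 triangles lie below all circles for Kdr, Vegfa and Angpt2.

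Mutant 1 was the lowest library for 5 of the 7 endothelial genes (Pecam1, Cdh5, Tek, Tie1 and Emcn), and mutant 3 for the remaining Kdr and Flt1. The summed level of the 7 was 409, 357 and 321 RPM in controls 1 to 3 and 268, 390 and 332 RPM in mutants 1 to 3. Mutant 1 was also the lowest library for 34.0% of all tested genes, and its share of reads on enamel epithelium markers, 7.06%, was the highest of the 6; the part of that share in the endothelial values was not tested. Without mutant 1 the Pecam1 difference was 0.0061 and that of Tie1 0.092, and without control 1 the Tie1 difference was 0.063, so these signs rested on single libraries. With the mean enamel marker level as a covariate, the differences were -0.090 for Pecam1, -0.14 for Cdh5, -0.047 for Kdr and -0.10 for Flt1. They were 0.17 for Tek, -0.015 for Tie1 and -0.22 for Emcn. None of the 10 had an unadjusted p under 0.05 in this fit, as in the fit without the covariate.

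Among the ligands, Angpt1 had the largest difference upward. It measured 72.0, 46.7 and 38.6 RPM across controls, and 76.7, 59.4 and 91.5 RPM across mutants. The means were 52.4 ± 17.4 and 75.8 ± 16.1 RPM, and mutant 2 lay below control 1. The difference was 0.55 (SE 0.26, unadjusted p 0.0708, adjusted p 1.00; limma). Between littermates it was 0.22 in litter 1 and 1.22 in litter 2; the latter compares 1 mutant with 1 control library and has no test. The 6 fits without 1 library each gave 0.36 to 0.80, the highest without control 1 (unadjusted p 0.0113, adjusted p 1.00; limma), and without mutant 2 it was 0.71 (unadjusted p 0.0407, adjusted p 1.00; limma). The difference between litters in the Angpt1 change was 1.01 (SE 0.43, unadjusted p 0.0579, adjusted p 0.910; limma); in that test 5.06% of all genes had an unadjusted p under 0.05.

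Vegfa measured 32.3, 34.3 and 30.1 RPM across controls, and 37.4, 33.1 and 17.9 RPM across mutants. A single library, mutant 3, stood well below the other 5, which lay within 30.1 to 37.4 RPM. The difference was -0.19 (SE 0.27, unadjusted p 0.501 by limma), and without mutant 3 it was 0.12. Angpt2 measured 8.66, 10.6 and 2.22 RPM across controls, and 6.47, 9.71 and 1.84 RPM across mutants. Here the litter 2 library of each genotype was low, and by genotype the groups overlapped (7.16 ± 4.38 and 6.01 ± 3.96 RPM; difference -0.22, SE 0.63, unadjusted p 0.733 by limma).

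Ratios within a library do not depend on its scaling. Exon lengths are not divided out of them, so each ratio compares libraries only. The Angpt2 to Angpt1 ratio of RPM was 0.120, 0.227 and 0.0576 in controls 1 to 3 and 0.0843, 0.164 and 0.0202 in mutants 1 to 3. On the log2 scale this gave -3.10 ± 0.99 in controls and -3.94 ± 1.54 in mutants, a difference of -0.83. Between littermates the difference was -0.49 in litter 1 and -1.52 in litter 2, and the ratio was also lower in both litter 2 libraries than in the 4 of litter 1. The test that follows does not hold litter. The Flt1 to Kdr ratio was 0.528, 0.583 and 0.677 in controls and 0.580, 0.526 and 0.649 in mutants. The Vegfa to Kdr ratio was 0.486, 0.540 and 0.697 in controls and 0.778, 0.482 and 0.432 in mutants. Two-sided exact permutation tests gave p = 0.6, 0.7 and 0.7 for these 3 ratios (0.7 each after Benjamini-Hochberg adjustment), where 3 against 3 libraries cannot go below 0.1.

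Litter set Angpt2 apart. It was at 8.66, 10.6, 6.47 and 9.71 RPM in litter 1 (controls 1 and 2, mutants 1 and 2; 8.86 ± 1.78, SD, n = 4) and at 2.22 and 1.84 RPM in litter 2 (n = 2). The highest litter 2 library had 63 reads and the lowest litter 1 library 182, so the litters did not overlap. The mean was 4.35-fold higher in litter 1. The fitted difference, litter 2 minus litter 1 in log2(RPM + 1) with genotype in the fit, was -1.68 (SE 0.21, adjusted p 0.0415; limma, Benjamini-Hochberg). It was seen in each genotype, -1.71 between controls and -1.65 between mutants. Angpt2 ranked 47 of 14444 genes by p. Of all tested genes 0.872% passed adjustment in this comparison, 0.831% lower and 0.0415% higher in litter 2, and among the members 1 of 10 did.

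The direction and size of the Angpt2 difference held in the 10 alternative fits, from -2.05 to -1.58, but its adjusted p ran from 0.0196 to 0.198. It was 0.0537 under median-of-ratios scaling, 0.0808 with no filter on low values and 0.0677, 0.198, 0.180 and 0.138 without control 2, control 3, mutant 2 and mutant 3 (limma, Benjamini-Hochberg). In fits without control 3 or mutant 3, litter 2 is a single library that is assumed to vary like the rest. Litter 2 is 2 libraries, so litter, animals and dissection cannot be told apart.

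**Figure D3:**
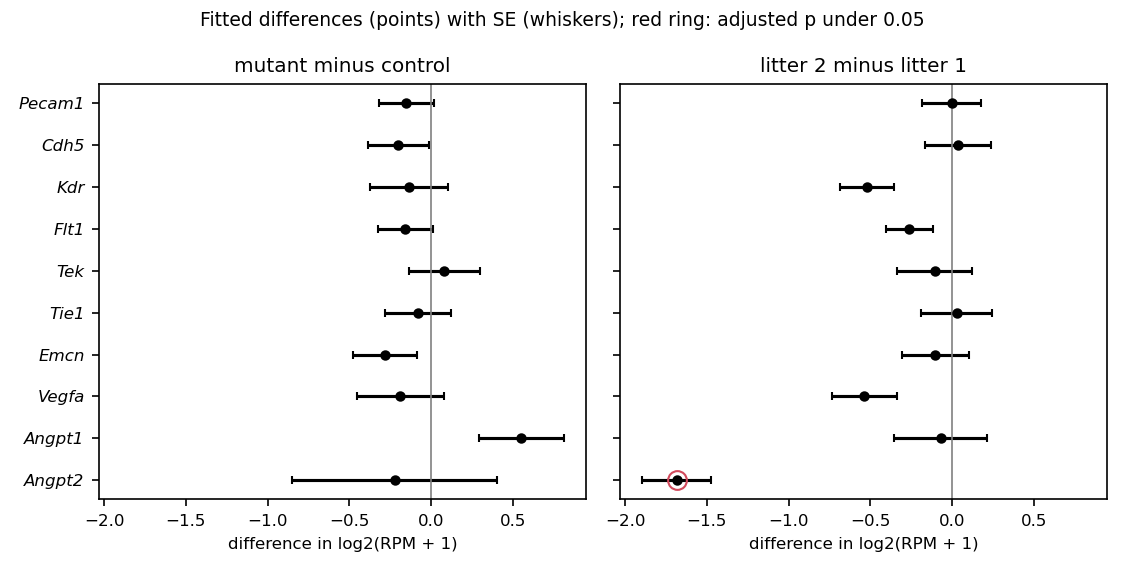
Fitted difference in log2(RPM + 1) (x axis) for each of the 10 genes, mutant minus control on the left and litter 2 minus litter 1 on the right, with SE as whiskers. The only ringed value, with an adjusted p under 0.05, is Angpt2 between litters at -1.68; by genotype the range is -0.28 (Emcn) to 0.55 (Angpt1).

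Kdr and Vegfa also had litters that did not overlap. With Angpt2 that makes 3 of 10, against 35.5% of all genes (20.5% lower and 15% higher in litter 2). The same 3 had an unadjusted p under 0.05, against 20.9% of all genes (13.7% lower and 7.21% higher). These counts are near the background. Kdr was at 61.7 ± 9.29 RPM in litter 1 and at 43.2 and 41.4 RPM in litter 2, a difference of -0.52 (SE 0.17, unadjusted p 0.0178, adjusted p 0.167; limma). Vegfa differed by -0.54 (SE 0.20, unadjusted p 0.0331, adjusted p 0.204; limma), by -0.14 without mutant 3 and by -0.94 without control 3 (unadjusted p 0.0030, adjusted p 0.218; limma). Flt1 differed by -0.26 (SE 0.14, unadjusted p 0.116). Pecam1, Cdh5, Tie1, Tek and Emcn differed by -0.11 to 0.03, with unadjusted p of 0.639 to 0.992 by limma. Cdh5 was at 88.9 ± 19.0 RPM in litter 1 (n = 4) and at 86.7 and 92.4 RPM in litter 2.

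The fitted litter difference of Cdh5 was 0.03, and -0.18 to 0.25 without 1 library each. For this small value other members were also read relative to Cdh5, a choice made after the values were seen and given as a description. The Angpt2 to Cdh5 ratio of RPM was 0.0776 to 0.121 in litter 1 and 0.0257 and 0.0199 in litter 2. The Kdr to Cdh5 ratio was 0.595 to 0.748 in litter 1 and 0.498 and 0.448 in litter 2. For Flt1 to Cdh5 control 3, at 0.337, lay inside the litter 1 range of 0.314 to 0.428, and mutant 3, at 0.291, below it. The Tie1 to Cdh5 ratio, 0.567 and 0.618 in litter 2, lay inside its litter 1 range of 0.550 to 0.629. The Flt1 to Kdr ratio was higher in both litter 2 libraries (0.649 and 0.677) than in the 4 of litter 1 (0.526 to 0.583). The Pecam1 ratio, 0.743 and 0.726 in litter 2, also lay inside its litter 1 range of 0.674 to 0.792. These ratios restate the levels above; the cells that make Angpt2 were not measured in whole tissue.

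Markers of mural cells and of macrophages and osteoclasts are given beside Angpt2. Other lists held litter differences too. Of 5 tested erythroid markers, 4 were higher and 0 lower in litter 2 at an unadjusted p under 0.05 by limma. Of 8 dental mesenchyme and odontoblast markers, 2 were higher and 2 lower, beside 7.21% and 13.7% of all genes. The 11 pericyte and smooth muscle markers, detected in every library, summed to 700 to 1084 RPM in litter 1 and to 486 and 789 RPM in litter 2. Within that list Notch3, the receptor of mural cells, was at 161, 174, 115 and 167 RPM in litter 1 and at 33.2 and 55.6 RPM in litter 2 (difference -1.80, SE 0.26, adjusted p 0.0478; limma). It was the 1 listed gene other than Angpt2 to pass. Under median-of-ratios scaling, without mutant 2 and without mutant 3, 0 genes of all passed, so this call was lost there. Exons of Notch3 overlap an annotated antisense gene on the opposite strand, so reads of the 2 may not be separable. Of the 10 tested markers of the list, 3 were lower and 3 higher at an unadjusted p under 0.05, where 13.7% of all genes were lower and 7.21% higher. The higher ones were Acta2, Tagln and Cspg4. The lower ones were Notch3, Abcc9 (difference -1.03) and Rgs5 (difference -0.97), a pericyte gene and the highest of the list at a mean of 229.6 RPM. The 8 macrophage and osteoclast markers summed to 384 to 718 RPM in litter 1 and to 321 and 365 RPM in litter 2. Of these 8, led in level by Ctsk, 4 were lower (Csf1r, Emr1, C1qa and Mrc1) and 0 higher at an unadjusted p under 0.05, beside 13.7% and 7.21% of all genes. Their part in the Angpt2 result was not tested.

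Of the other genes of the VEGF and angiopoietin pathways, 9 of 9 were detected in every library and 8 were tested. By genotype 0 had an unadjusted p under 0.05 and the median difference was -0.07. By litter 0 passed adjustment, 3 were lower and 3 higher at an unadjusted p under 0.05, beside 13.7% and 7.21% of all genes. The lower ones were Flt4 (VEGFR3; 13.7 ± 1.35 RPM in litter 1, 9.99 and 9.01 in litter 2), the co-receptor Nrp1 and Ptprb, the endothelial phosphatase that acts on Tek. The higher ones were the ligands Vegfc and Pgf and the co-receptor Nrp2, at 57.2 ± 3.64 RPM in litter 1 and at 80.8 and 89.1 RPM in litter 2.

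Of 20 other endothelial markers, all detected and tested, 0 had an unadjusted p under 0.05 by genotype, and 15 were lower and 5 higher, with a median difference of -0.11. Their sum was 623 to 801 RPM in controls and 557 to 822 RPM in mutants. Eng, the endothelial TGF-beta co-receptor and highest of the list in RPM, averaged 89.2 ± 13.7 RPM over controls and 78.5 ± 14.6 RPM over mutants. Robo4, a receptor that stabilises vessels, was the 1 gene of the 20 without overlap, a count near the 2.64% of all genes, at 12.7 ± 2.08 and 10.04 ± 0.701 RPM (difference -0.31, SE 0.17, unadjusted p 0.121 by limma). By litter 0 of the 20 passed adjustment, and 2, Egfl7 and S1pr1, were lower at an unadjusted p under 0.05, no more than the 13.7% of all genes (median of the list -0.04, all genes -0.03).

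Of 9 tip cell and arterial genes, 8 were tested. Apln, the ligand of the endothelial receptor Aplnr, measured 10.4, 8.22 and 10.1 RPM across controls, and 5.72, 6.35 and 7.84 RPM across mutants. All mutants lay below all controls, and the difference was -0.47 (SE 0.19, unadjusted p 0.0388, adjusted p 1.00; limma). It was the 1 gene of the 8 to do either, beside 2.64% of all genes without overlap and 1.05% under an unadjusted p of 0.05. By litter 3 of the 8 were lower and 5 higher, with a median of 0.11, and 2 were lower and 0 higher at an unadjusted p under 0.05, beside 13.7% and 7.21% of all genes. Aplnr, the receptor of Apln, was higher in both litter 2 libraries than in all of litter 1 (difference 0.38, SE 0.19, unadjusted p 0.0876 by limma). The 2 lower ones were Dll4 and Hey1. The Notch ligand Dll4 was at 24.4 ± 4.46 RPM in litter 1 and at 9.64 and 10.8 RPM in litter 2 (difference -1.16, SE 0.20, adjusted p 0.0616; limma). The Notch target Hey1, at 204 ± 57.5 RPM in litter 1, was at 95.6 and 76.6 RPM in litter 2 (difference -1.20, SE 0.28, adjusted p 0.0997; limma). Dll4 shares exon sequence with an annotated transcript on the opposite strand.

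**Figure D4:**
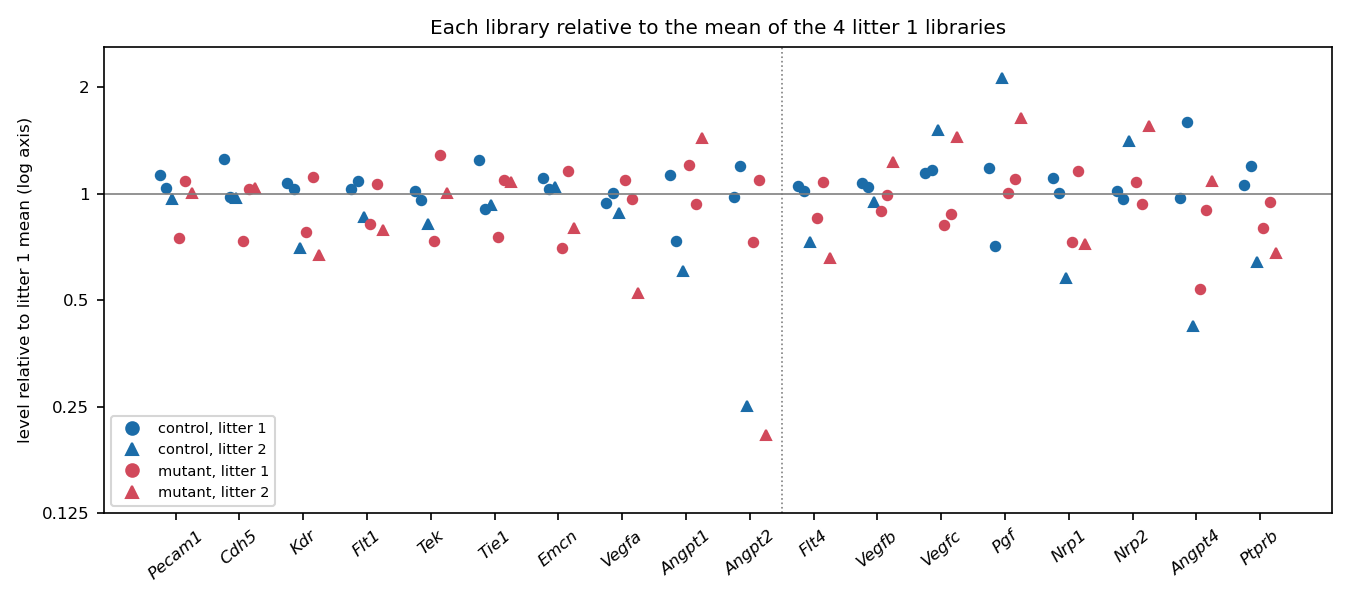
Level of each library divided by the mean of the 4 litter 1 libraries (y axis, log scale) for the 10 genes (left of the dotted line) and the 8 tested genes of the VEGF and angiopoietin list (right). Litter 2 triangles lie near 1 for Pecam1, Cdh5 and Tie1, lowest for Angpt2, below all litter 1 points for Kdr, Vegfa, Flt4, Nrp1 and Ptprb, and above them for Vegfc, Pgf and Nrp2.

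Of 14 hypoxia response genes, a programme that includes Vegfa as a target, 13 were tested and 0 had an unadjusted p under 0.05 by genotype. By litter 4 were higher (Slc2a1, Pgk1, Ldha and Egln3) and 1 lower (Epas1) at an unadjusted p under 0.05, beside 7.21% and 13.7% of all genes, and 0 passed adjustment. Ldha, the highest of them in RPM, was at 122 RPM on average in litter 1 and 167 RPM in litter 2, while Vegfa was at 34.3 and 24.0 RPM. Of the lymphatic markers, led in level by Pdpn, 0 of 3 were under an unadjusted p of 0.05 in either comparison.

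Over the 6 libraries the 10 genes most like the mean standardised profile of the 7 endothelial genes, among 11806 genes at 5 RPM or more, were Mtrf1l, Dixdc1, Rasgrp3, Bcl7b, Stk25, Pmvk, Ddx52, Asphd2, Rpusd1 and Sdccag3 (Pearson's r 0.978 to 0.992, a description over 6 libraries that share litters). None of the 36 ranked genes of the VEGF, endothelial and tip cell lists was among the nearest 100, where r was at least 0.930. Those 100 are 0.847% of the genes ranked, so a count of 0 among 36 is near that share. The nearest of the 36 was Sox18, at rank 115 (r 0.926). The median r was 0.60 for those 36 genes and 0.41 for all genes.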

How the data were processed

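The authors deposited 1 table of log2 values by gene and library, named as normalized RPKM. Each value raised as a power of 2 was a whole multiple of 1 step per library (100% of values above the column minimum, within 0.001 reads plus rounding), so it was read as log2 of RPM with gene length not divided out. Genes at the minimum (0.9 of a step) were set to 0. TopHat2 and mm10 are named in the submitters' processing notes; the counting program and annotation are not given in the sources used here. Testing covered genes averaging 1 RPM or more, on log2(RPM + 1), which understates changes of low genes, with limma 3.58.1 (R 4.3.3; lmFit, eBayes with trend, two-sided, Benjamini-Hochberg). The litter fit held genotype as a term, while the main genotype fit held no term for litter. The design had allowed for RPKM; the same test was applied to RPM. Lengths are the union of exons in GENCODE M21. The members and lists were chosen with earlier results of these data known. All 10 members are named; listed genes are named for an unadjusted p under 0.05 or no overlap by genotype, or as highest of their list, and genes named for litter were chosen after their values were seen. Outside the vascular and macrophage lists that rule also gave Ibsp, Spp1, S100b and Twist1 by genotype, with a further gene that is not reported here, and Amelx, Col1a1, Bglap, Hbb-b1 and Mbp as highest of their lists. Alternatives covered pseudocount, filter, scaling, blocks, covariate, voom and each library left out. The labels do not say which libraries are separate animals, so p-values measure the spread between libraries, and the limits of detection cover counting error only.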

Additional observations from a re-analysis of the deposited data

Results flagged for a closer look

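The change of Vegfa was in opposite directions in the litters, which does not pass adjustment. Mutant minus control was 0.08 in litter 1 and -0.72 in litter 2 on the log2(RPM + 1) scale, where Vegfa stood at 30.1 RPM in control 3 and 17.9 RPM in mutant 3. The difference of -0.80 (SE 0.28) had an unadjusted p of 0.0276 and an adjusted p of 0.896 (limma, Benjamini-Hochberg), where 5.06% of all genes were under an unadjusted p of 0.05 and 0% were called after adjustment. It rests on 1 library per genotype in litter 2. Mutant 3 also had the lowest Dspp, 113 RPM, and the fewest reads on genes. It was not the lowest for Dmp1 of the same list, at 15.2 RPM beside 5.33 in control 1 and 5.36 in mutant 2. The part of these in the Vegfa value was not tested.

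Angpt4 had a mutant minus control value of -0.83 in litter 1 and 1.34 in litter 2. The difference of 2.17 (SE 0.56) had an unadjusted p of 0.0084 and an adjusted p of 0.720 (limma, Benjamini-Hochberg), and it too rests on 1 library per genotype in litter 2.

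Of the 62 tested genes of the VEGF, endothelial, tip cell, lymphatic, mural and hypoxia lists, 11, Angpt4 among them, had a higher change in litter 2 and 3 a lower one at an unadjusted p under 0.05 by limma, beside 5.06% of all genes, and none passed adjustment. Among endothelial markers the differences were 1.24 for Cldn5, 1.08 for Acvrl1, 1.26 for Erg and 1.28 for Sox17. Among tip cell and arterial genes they were 0.88 for Notch4, 1.66 for Gja4 and 1.64 for Gja5. Mural genes gave 1.46 for Pdgfrb, 1.598 for Rgs5 and 1.00 for Notch3. The lower ones were -1.06 for Pdpn, -1.23 for Ndrg1 and -1.02 for P4ha1. All rest on the same 2 libraries of litter 2, and the genes were picked by these values.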

How the results depend on the processing

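By genotype, 0 of the 10 genes passed adjustment in each of 17 alternative fits. With the replicate number as a block, 1 member (Angpt1, unadjusted p 0.0493, adjusted p 1.00; limma) was under 0.05, and the block changed no other call. Those numbers come from the column names. Same-numbered libraries also share a litter, as control 3 and mutant 3 are litter 2 and the others litter 1. For numbers 1 to 3, same-numbered libraries deviated together at -0.03, 0.75 and 0.50. Leaving out 1 library at a time gave 0 to 2 members under an unadjusted p of 0.05 and 0 to 1 genes of all past adjustment, the 1 without control 1. Of 170 member differences by genotype, 11 changed sign. In litter 1 alone Tek was -0.022 and Vegfa 0.078. Without 1 library each, the ranges were -0.26 to 0.0061 for Pecam1, -0.34 to 0.019 for Kdr, -0.11 to 0.28 for Tek, -0.17 to 0.092 for Tie1, -0.39 to 0.12 for Vegfa and -0.79 to 0.33 for Angpt2. The differences in log2 ratio ran from -1.50 to 0.014 (Angpt2 to Angpt1), -0.11 to 0.072 (Flt1 to Kdr) and -0.32 to 0.11 (Vegfa to Kdr).

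By litter, 126 genes passed adjustment, but 2 with no filter on low values, 0 under median-of-ratios scaling, 458 with no genotype term and 0 to 371 without 1 library each (0 without mutant 2 or mutant 3). Among the members the count was 1, but 0 with no filter and 0 under median-of-ratios scaling, and 0 to 1 without 1 library each. At an unadjusted p under 0.05 it was 3, and 1 to 4 without 1 library each. Median-of-ratios scaling turned Pecam1 to 0.045. Without 1 library each, the litter differences ran from -0.16 to 0.15 for Pecam1, -0.18 to 0.25 for Cdh5, -0.29 to 0.047 for Tek, -0.19 to 0.25 for Tie1, -0.24 to 0.056 for Emcn and -0.58 to 0.43 for Angpt1. The fits without 1 library have fewer libraries, and the fit with no filter adjusts over more genes. What caused the changes in these counts was not tested. Depth limits Angpt2 most, at 44 reads in mutant 3.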

Other observations

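Angpt4, a further angiopoietin that binds Tek, had a higher mean level per exon length than any of the 10 genes, though in control 3 Cdh5 was above it, with a mean of 37.2 RPM per kb over the 6 libraries (range 17.1 to 64.7), against 12.3 for Angpt1 and 1.78 for Angpt2. It stood at 92.0, 151 and 39.9 RPM across controls 1 to 3, and at 50.8, 85.1 and 103 RPM across mutants 1 to 3. By genotype it was not called (94.4 ± 55.6 and 79.6 ± 26.4 RPM; difference -0.11, SE 0.48, unadjusted p 0.83 by limma) nor by litter (unadjusted p 0.403 by limma); its change by litter is given among the results for a closer look.

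The 6 erythroid markers summed to 177 to 458 RPM in litter 1 and to 1986 and 612 RPM in control 3 and mutant 3, where globin copies share reads. The 7 endothelial genes summed to 268 to 409 RPM in litter 1 and to 321 and 332 RPM in litter 2.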
